A study of Tribolium castaneum with 2 samples.

Results

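On the assembled linkage groups of the red flour beetle Tribolium castaneum, 2820 listed cytosine positions were covered by more than 100 and at most 1000 bisulfite reads, summed over both replicates. These repeat-depth positions, the members described here, were chosen by that depth alone, from 17334624 positions listed on sequences assigned to a linkage group, and made up 0.0163% of these. The tables of the series listed 19983652 positions in all. Because depth chose the members, their depth, their spread over the linkage groups and their grouping into blocks are given as a description, without a test. Their non-conversion, the share of reads that still show a cytosine after bisulfite treatment, was not used in the choice and was tested.

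The 2 libraries of the series were bisulfite-treated DNA from pooled eggs, sequenced genome-wide, of the GA-2 laboratory line of this beetle, collected on the second day of development. Both replicates belonged to 1 condition with no treated, mutant or other comparison group, and nothing in the labels ties the pools to separate cultures, so the spread between them may be technical. The study asked whether the DNA of this beetle carries CpG methylation. The deposited tables gave, for each listed position, the number of unconverted and of converted reads, and no strand or sequence context.

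Bisulfite turns an unmethylated cytosine into uracil, which is read as thymine, while a methylated cytosine resists the reaction and is still read as cytosine. A low level of unconverted reads remains in any such library, from incomplete reaction and sequencing error, so a methylated position is sought as one with more unconverted reads than this background. Repeats, such as satellite DNA in long tandem arrays and transposable elements scattered between genes, occur in many copies, and an assembly often holds fewer copies of them than the animal does. Reads from all copies then pile up on the copies that were assembled, which gives such positions a depth far above that of single-copy DNA. The genome of this beetle is known for its large amount of satellite DNA.

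Summed over positions, the members carried 0.925% of all read counts on the linkage groups, 607983 of 65731093. Here and in every sum of reads below, a read is counted once at each listed position it covers. Their median depth was 149.5 reads, with quartiles of 119 and 241 reads and a range of 101 to 998, against a median of 3 reads over all positions on linkage groups. Of the 2820 members, 1896 had at most 200 reads, 733 had more than 200 and at most 500, and 191 had more than 500. All 2820 were listed in both replicates. Nothing set the members apart at the limits of the rule: 37 positions had 101 reads and 48 had 100, and the deepest members had 997 and 998 reads beside positions of 1002 and 1004 reads just outside. A further 120 positions on linkage groups lay above 1000 reads.

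Every linkage group held members, and they came from 121 of the 176 sequences assigned to linkage groups. LG3 had the most, with 682 members (24.2% of all), followed by LG8 with 521 (18.5%), LG9 with 330 (11.7%) and LG6 with 324 (11.5%). LG10 had 275, LG4 had 254, LG7 had 156, the X chromosome had 112, LG2 had 96 and LG5 had 70. This order did not follow the number of positions listed: LG7, LG5 and LG2 had more listed positions than every linkage group but LG3, and LG10 had the fewest. Per 100000 listed positions, LG10 was densest with 33.1 members, LG6 and LG8 followed with 31.8 and 31.3, and LG3 came after them with 21.2. LG5 was sparsest with 3.56 per 100000, LG2 had 4.90, LG7 7.41 and the X chromosome 11.7. The share of a linkage group's reads that fell on members ran from 0.255% on LG5 to 1.65% on LG8 and 2.23% on LG10.

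**Figure D1:**
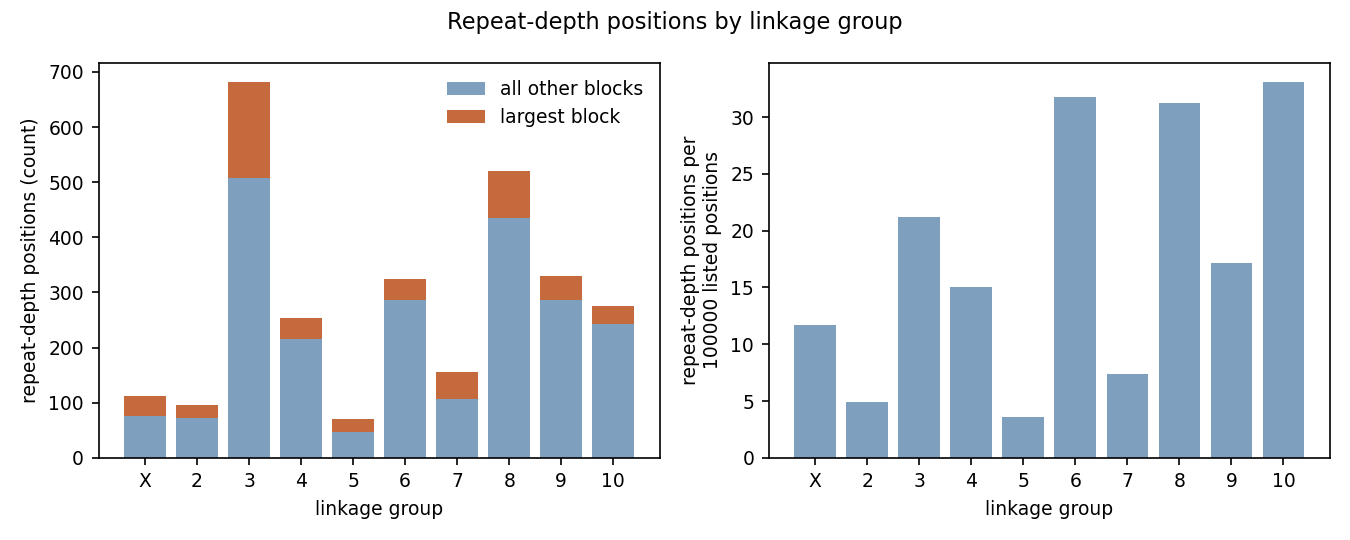
Repeat-depth positions on each of the 10 linkage groups, as a count over both replicates (left, with the largest block of the linkage group in orange) and per 100000 listed positions (right), without error bars because each value is a full count. LG3 has the most (682), while LG10, LG6 and LG8 are the densest and LG5 and LG2 the sparsest.

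Joining members that lay no more than 500 bp apart gave 347 blocks, a number that depends on the gap and the depth chosen. Of these, 102 (29.4%) held a single member. At the other end, 27 blocks of at least 25 members held 1254 members (44.5%), and the 5 largest held 464 (16.5%). The median block had 4 members. Blocks were short, with a median span of 29 bp over all blocks and of 62 bp over those with more than 1 member. In all, 245 blocks (70.6%) spanned no more than 100 bp, 12 spanned more than 1000 bp, and the 347 together spanned 55410 bp. Density in members and density in blocks gave the linkage groups a partly different order: LG6 had 55.9 blocks per 1000000 listed positions, LG10 had 47.0 and LG5 had 6.10. On LG3 a single block held 174 members, 25.5% of those on the linkage group.

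**Figure D2:**
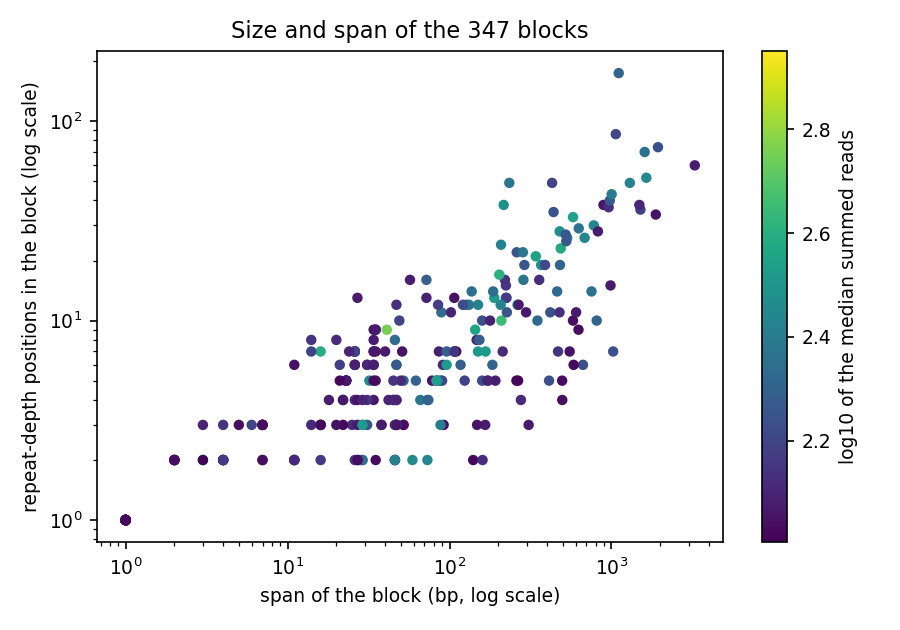
Each point is 1 of the 347 blocks, placed by its span in bp and its number of repeat-depth positions, both on log scales, and coloured by the log10 of its median summed reads. Most blocks are short with few members, single members share the point at 1 bp, and the block of 174 members in 1109 bp on LG3 stands highest.

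The block with the most members was LG3_WGA63_2:188449-189557, which held 174 members in 1109 bp (assembly version 3.0, coordinates as the tables give them). Their median depth was 201.5 reads and the deepest had 370. Of 267 positions listed inside it, only 15 had 10 reads or fewer, while the positions flanking it had a median of 3 reads. In replicate 1 it gave 2 unconverted reads of 18992 (0.0105%), and in replicate 2 it gave 2 of 17431 (0.0115%). The upper 95% Wilson limits were 0.0384% and 0.0418%. No other block held more reads.

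On the same sequence, LG3_WGA63_2:1078242-1080179 held 74 members in 1938 bp, with a median depth of 173.5 reads and a maximum of 634. It was patchier than the block before, as 198 of the 540 positions listed inside it had 10 reads or fewer. It gave no unconverted read of 6984 in replicate 1, where the upper Wilson limit was 0.0550%, and 9 of 9016 (0.0998%) in replicate 2, where the upper limit was 0.190%. The block LG8_WGA128_2:1190189-1191252 held 86 members in 1064 bp and had 1 unconverted read of 6839 in replicate 1 and 0 of 7710 in replicate 2. LG3_WGA51_2:835470-837073 held 70 members and, between them, 12 positions above 1000 reads, with 4 unconverted reads of 9159 in replicate 1 and 3 of 11023 in replicate 2. The longest block, LG8_WGA135_2:5417-8687, held 60 members in 3271 bp among 638 listed positions, with 2 unconverted reads of 3312 and 3 of 4462. Among the longest were also LG4_WGA71_2:1769319-1771197, with 34 members, and LG8_WGA128_2:90084-91725, with 52. The block LG10_WGA164_2:1165712-1166244, of 26 members, was among those with the most unconverted reads, with 6 of 3656 in replicate 1 and 2 of 4389 in replicate 2.

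Members did not fill their blocks. The block spans held 12441 listed positions, of which 22.7% were members and 5011 (40.3%) had 10 reads or fewer. Of the 120 positions on linkage groups with more than 1000 reads, 111 lay inside the spans of 23 blocks. Members were nevertheless close together: the median distance to the next member of a block was 7 bp, and 874 of the 2820 members sat directly beside another member. The surroundings of single members differed from those of large blocks. Listed positions within 100 bp of a single member had a median depth of 6 reads and a median highest depth of 79 reads, against 20 and 327.5 reads around the members of blocks of at least 25. There were 14 members more than 5 times as deep as every neighbour within 100 bp, and 9 of these were single. The definition of a block favours single members in this count.

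The ends of assembled sequences held more members than their share of positions. Within 1000 bp of the first or last listed position of a sequence lay 190 members (6.74%), against 0.279% of all positions on linkage groups, and within 10000 bp lay 465 (16.5%), against 2.56%. These 190 members came from 22 blocks. They included LG1=X_WGA1_2:81-1590 with 36 members, LG4_WGA70_2:762574-763012 with 35, LG9_WGA162_2:55-879 with 28 and LG3_WGA66_2:63-588 with 25. Most members nevertheless lay well inside their sequences, at a median of 149012 bp from an end.

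The ratio of raw reads between the replicates, not scaled for library size, was lower on members than on shallow positions. Replicate 2 had 331050 reads on members and replicate 1 had 276933, a ratio of 1.20, whereas positions with 2 to 10 summed reads had a ratio of 1.35. Over all positions on linkage groups the ratio was 1.34, and over all listed positions 1.31, so the members lay below the ratio of the libraries. Positions of the same depth on sequences with no linkage group (unplaced sequences) had a ratio of 1.21, and positions above 1000 reads one of 1.22. Since the members were selected on the sum of both replicates, these ratios are descriptions. Over members the median ratio was 1.21, with quartiles of 1.08 and 1.36. Among the 64 blocks with at least 2000 reads the ratio ran from 0.918 to 1.51, and only 2 had more reads in replicate 1. These, named here for their ratio after it was seen, were the 174-member block on LG3, at 0.918, and the block that begins at position 47603 of LG6_WGA107_2, at 0.957. The highest ratios, both 1.51, belonged to LG4_WGA71_2:141-229 and to the block that begins at position 97401 of LG10_WGA176_2. By linkage group the ratio lay between 1.14 on LG3 and 1.27 on LG5. The value of LG3 includes the 174-member block, which held 36423 of the 147776 reads on members there.

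Whether deeply covered positions stayed unconverted more often was tested within each replicate, against the 11114338 positions on linkage groups with 2 to 10 summed reads. In replicate 1, members had 145 unconverted reads of 276933 (0.0524%, 95% Wilson interval 0.0445 to 0.0616) and the shallow positions 8198 of 21705538 (0.0378%, 0.0370 to 0.0386). In replicate 2, members had 183 of 331050 (0.0553%, 0.0478 to 0.0639) and the shallow positions 16476 of 29264028 (0.0563%, 0.0554 to 0.0572). The intervals cover counting error only, with every count taken as independent. Over the replicates, the members' non-conversion was 0.0538% ± 0.00206 (SD, n = 2). Members were thus higher than shallow positions in replicate 1, by 1.39-fold (two-sided Fisher's exact test on reads, p = 0.000185), and not in replicate 2 (0.982-fold, p = 0.854). Such a test compares the reads of one library and takes no account of the spread between replicates. It also treats every count as independent, although nearby members can share a read and unconverted reads gathered at a few members. Its p can thus be too small even within a library. Paired by library, the difference of members minus shallow positions was 0.00678 ± 0.0110 percentage points (SD, n = 2), positive in replicate 1 and negative in replicate 2 (two-sided exact sign-flip permutation test, p = 1, where 0.5 is the smallest p that 2 pairs allow).

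A small number of positions held many of the unconverted reads of replicate 1. The 4 members that were called, as described below, held 53 of the 145 unconverted reads of replicate 1 (36.6%) and 20 of the 183 of replicate 2 (10.9%). Without them the members had 92 unconverted reads of 276548 in replicate 1 (0.0333%, 0.0271 to 0.0408) and 163 of 330678 in replicate 2 (0.0493%, 0.0423 to 0.0575). Since they were taken out for their high non-conversion, and from the members alone, the rate is lower by construction, and no comparison with the shallow positions is drawn from it. The omission also moved the ratio of replicate 2 to replicate 1 for the members from 1.06 to 1.48. That shift follows from the omitted positions, which held 53 unconverted reads in replicate 1 and 20 in replicate 2, and nothing is drawn from it. This omission was chosen after the values were seen. With only the members above 200 reads, the ratio was 1.21 in replicate 1 (p = 0.108) and 0.767 in replicate 2 (p = 0.0138, both by two-sided Fisher's exact test), so the test passed in the other replicate and in the other direction.

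Unplaced sequences held 32926 positions of the same depth, with non-conversion of 0.0395% in replicate 1 and 0.0590% in replicate 2. Members were 1.33-fold higher than these in replicate 1 (two-sided Fisher's exact test, p = 0.00174) and at 0.937-fold in replicate 2 (p = 0.416).

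**Figure D3:**
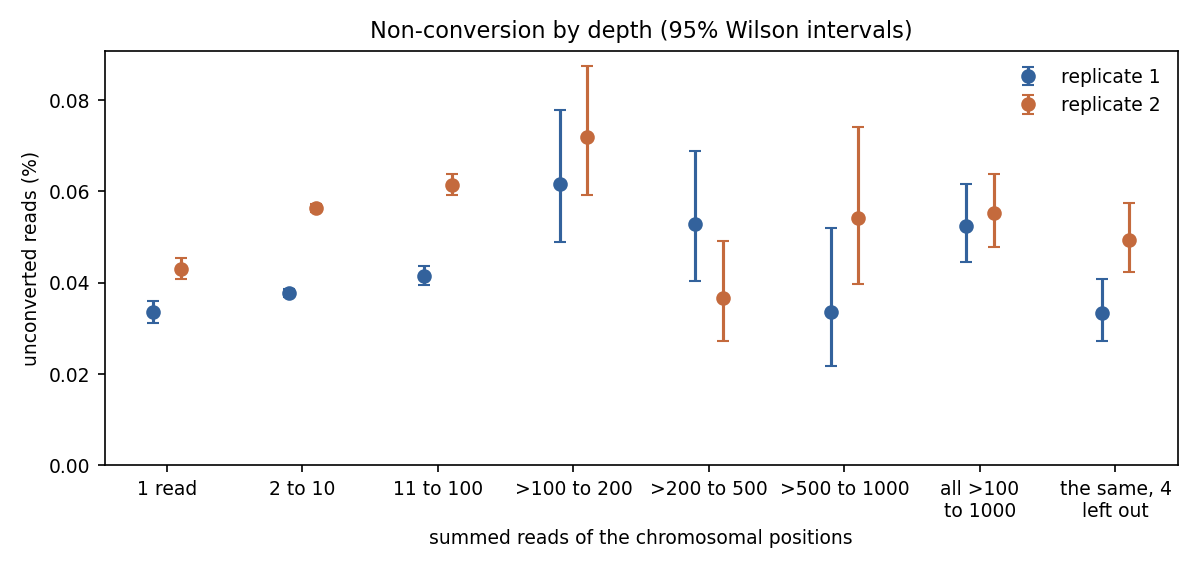
Unconverted reads in percent, by replicate, for positions on linkage groups in classes of summed reads, for all members and for the members without the 4 called positions, with 95% Wilson intervals that cover counting error only. Members lie above positions of 2 to 10 reads in replicate 1 (0.0524% against 0.0378%) and beside them in replicate 2 (0.0553% against 0.0563%).

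Non-conversion did not rise steadily with depth among members. In replicate 1 it was 0.0617% for members of at most 200 reads, 0.0528% for those of more than 200 and at most 500, and 0.0336% for the deepest. In replicate 2 the values were 0.0720%, 0.0366% and 0.0542%, so the middle class was lowest there. The values of replicate 1 depended on the 4 called members: without them, an omission chosen after the values were seen, the classes stood at 0.0348%, 0.0313% and 0.0336%, and at 0.0591%, 0.0350% and 0.0542% in replicate 2. The called members all had at most 500 reads and were taken out for their high non-conversion. The lower values thus follow by construction, and nothing is drawn from them about a fall with depth. Positions above 1000 reads had 0.0575% and 0.0600%, and positions of 11 to 100 reads had 0.0415% and 0.0614%.

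Sorting members by the size of their block gave a gradient that the called positions shaped. In replicate 1, single members had 0.420% unconverted reads, members of blocks of 2 to 9 had 0.0787%, of blocks of 10 to 24 had 0.0404%, and of larger blocks had 0.0310%. In replicate 2 the values were 0.408%, 0.0650%, 0.0549% and 0.0343%. Without the called positions, single members had no unconverted read in replicate 1, which allowed up to 0.0611% by the upper Wilson limit, and 0.188% (0.112 to 0.315) in replicate 2. The blocks of 2 to 9 members then stood at 0.0323% and 0.0608%. Single members and blocks of 2 to 9 held all the called positions, which were taken out for their high non-conversion. These lower values thus follow by construction, and nothing is drawn from them about the fall with block size.

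The linkage groups with the highest shares of unconverted reads were not the same in the replicates. In replicate 1, LG9 had 0.109% (0.0798 to 0.149) and LG10 had 0.101% (0.0714 to 0.142), while the other 8 ran from 0.0241% on LG5 to 0.0458% on LG7. Without the called members LG9 stood at 0.0478% and LG10 at 0.0568%, still the highest in replicate 1, LG7 at 0.0230%, and LG3 at 0.0217% in place of 0.0405%. In replicate 2 the linkage groups ran from 0.0265% on the X chromosome to 0.0858% (0.0567 to 0.130) on LG6. LG2 followed with 0.0794% (0.0432 to 0.146), and neither LG6 nor LG2 held a called member. LG9 and LG10 came next with 0.0675% (0.0470 to 0.0969) and 0.0632% (0.0428 to 0.0933). The intervals of LG6, LG2, LG9 and LG10 overlapped, so their order in replicate 2 lay within counting error.

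Most members had no unconverted read at all. This held for 2584 members (91.6%) over both replicates and for every member of 226 blocks (65.1%). In replicate 1, 93 members (3.30%) had at least 1 unconverted read and 86 of them had exactly 1. In replicate 2, 158 members (5.60%) had at least 1 and 147 of them had exactly 1. Unconverted reads recurred in both replicates at 15 of the 2820 members. These 15 lay on 8 linkage groups, and at 11 of them fewer than 1% of the summed reads were unconverted. Among the 32926 unplaced positions of the same depth range, unconverted reads recurred at 316, so recurrence was not particular to the members. At least 1 unconverted read was seen at 4.90% of these unplaced positions in replicate 1 and at 8.73% in replicate 2, above the shares for members. Their median depth was 218 reads, against 149.5 for members, and the differences in these shares were not tested.

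Single positions were called with a one-sided exact binomial test against the overall rate of their replicate, adjusted by Benjamini-Hochberg over all positions of the replicate with at least 5 reads. All 2820 members entered it. In replicate 1, 4 members were called, where 0.00112% of all tested positions were called (16 of 1424112). In replicate 2, 2 members were called, where 0.000338% of all were (9 of 2659511). Both calls of replicate 2 were also called in replicate 1, and over the positions tested in both replicates the share was 0.000809% (6 of 741824). A position of a few reads can pass only if most of them are unconverted, so this background rests on positions with far less power than the members. Among the 32926 unplaced positions of the same depth, 5 were called in replicate 1, 4 in replicate 2 and 2 in both.

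The 2 members called in both replicates stood alone in their surroundings. LG10_WGA174_2:406188 had 14 unconverted reads of 65 in replicate 1 (21.5%, 95% Wilson interval 13.3 to 33.0) and 9 of 55 in replicate 2 (16.4%, 8.86 to 28.3), with overlapping intervals. The listed positions within 100 bp of it had at most 30 reads, and the nearest of them, 2 bp away, had none unconverted. LG3_WGA35_2:214892 had 13 of 74 (17.6%, 10.6 to 27.8) and 8 of 73 (10.96%, 5.66 to 20.2). Its deepest neighbour, 4 bp away, had 25 reads and none unconverted. Both were blocks of a single member, several times deeper than the positions beside them.

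The 2 members called in replicate 1 only had few unconverted reads in replicate 2. LG9_WGA161_2:472521 had 22 of 190 (11.6%, 7.77 to 16.9) in replicate 1 and 2 of 172 (1.16%, 0.319 to 4.14) in replicate 2, so its intervals did not overlap at nearly equal depth. It opened a block of 7 members that ended at 472687 and gave all but 1 of the unconverted reads of that block in replicate 1, 22 of 23. LG7_WGA119_2:277815 had 4 of 56 (7.14%, 2.81 to 17.0) and 1 of 72 (1.39%, 0.246 to 7.46). It lay in a block of 8 members with up to 140 reads. The listed positions on either side of it, 1 bp away, had 94 and 136 reads and none unconverted. The adjusted p in replicate 1 was 0.00112 for this position and 1.64e-41 for the one on LG9, and for both it was 1 in replicate 2 (exact binomial test with Benjamini-Hochberg adjustment).

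The other 11 members with unconverted reads in both replicates had low levels and deep neighbours. The highest was LG3_WGA51_2:835813, at 0.926% of 216 reads, followed by LG4_WGA71_2:196, at 0.810% of 247 reads, and the lowest stood at 0.213%. LG9_WGA154_2:962578, with 1 unconverted read of 236 in replicate 1 and 3 of 274 in replicate 2, reached 0.784%. LG2_WGA18_2:46639, LG10_WGA174_2:40680 and LG9_WGA149_2:25608 stood at 0.543%, 0.501% and 0.489%. None of the 11 was called in either replicate.

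The spacing of members was read in the 27 blocks of at least 25 members, after the data had been seen, and is given without a test. A tandem repeat places the same cytosines one repeat length apart, so pairs of members recur at that distance and its multiples. In the 174-member block on LG3, 139 pairs of members lay 5 bp apart, 130 lay 10 bp apart and 127 lay 15 bp apart, while only 6 pairs lay 1 bp apart and 6 lay 4 bp apart. Of all pairs counted in this block, 50.5% lay at a multiple of 5 bp, against 17.9% to 23.2% in the other blocks of this size. Counted from a fixed start in steps of 5 bp, 105, 66 and 3 members fell on 3 of the 5 places in the step, and none fell on the other 2. The members of this block thus kept a register of 5 bp over its whole length of 1109 bp.

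Other blocks repeated at longer distances. In LG3_WGA63_2:1078242-1080179, 43 of 74 members (58.1%) had another member exactly 350 bp further on, 35 had one at 175 bp and 31 had one at 525 bp. In LG3_WGA66_2:63-588, on another sequence of LG3, 12 of 25 members (48%) had another at 175 bp and 6 at 350 bp. In LG7_WGA113_2:369066-370364, 20 of 49 members (40.8%) had another at 377 bp and 7 at 754 bp. In that block 9 members had another at 46 bp, and 7 had one at 88 bp and at 331 bp, so 754 bp did not stand out. In LG1=X_WGA1_2:81-1590, 12 of 36 members had another at 376 bp and 10 at 754 bp, beside 9 each at 43, 187, 378 and 752 bp. The distances of 175 and 350 bp thus recurred on a pair of sequences of LG3, and a distance near 377 bp on LG7 and the X chromosome. A distance of 377 bp was also seen for 6 of 43 members of LG9_WGA160_2:927255-928257 and 5 of 33 of LG10_WGA174_2:40364-40942. It did not stand out in either block. In the LG9 block 7 members had another at 740 bp. In the LG10 block 6 had one at 307 bp, and 5 each had one at 38, 70 and 231 bp.

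**Figure D4:**
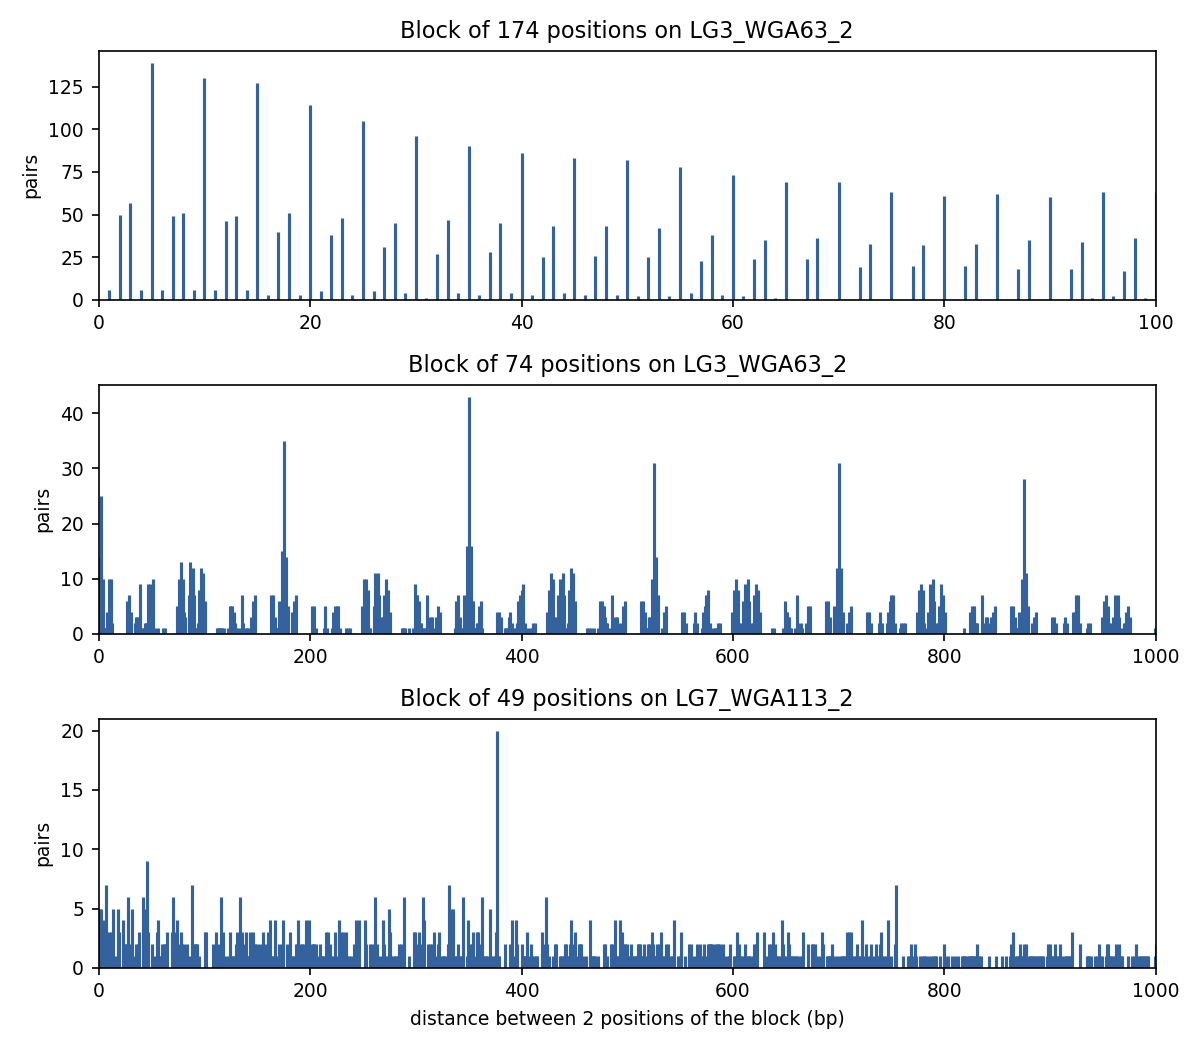
Number of pairs of members at each distance in bp, within the blocks of 174 and 74 members on LG3_WGA63_2 and the block of 49 members on LG7_WGA113_2. The first peaks at multiples of 5 bp, the next at 175, 350 and 525 bp, and the last at 377 bp. In the last, 754 bp stands no higher than 46, 88 and 331 bp.

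Blocks on different sequences were also compared by the distances among their members, again after the data had been seen and without a test. Of 89 blocks with at least 8 members, every pair was slid along each other in both orientations, and a pair was linked when at least 8 members and at least 80% of the smaller block fell on members of the larger, and the next-best placement matched no more than 1 member for every 2 of the best. Of the 3916 pairs, 44 were linked, and in 28 of these every member of the smaller block was matched. The median best match over all pairs was 31.6% of the smaller block. The links joined 25 blocks into 5 families.

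The largest family had 15 blocks with 188 members on 12 sequences, with 6 blocks on LG6, 4 on LG3, 2 each on LG4 and LG10, and 1 on LG8. Its longest list of members was LG4_WGA70_2:762574-763012, with 35. Relative to this block, 6 of the others ran in the same orientation and 8 in the opposite one, and 142 of their 153 members (92.8%) fell on 1 of its members. Most of these blocks were linked to it by a match of at least 80%, so a high share was set in advance. As an example, LG10_WGA176_2:97401-97586 matched with 14 of its 14 members in the opposite orientation, where its next-best placement matched 5. Most shared members lay in 2 stretches of the largest block. Of the 15 blocks, 4 had at least 3 members in both stretches, 3 in the first only and 8 in the second only. The most widely shared position, 351 bp along, was a member in 12 blocks, with 111 to 197 reads. Depth in the stretches was similar, with a median of 168 reads (103 to 231) in the first and 130 (101 to 289) in the second, where the rule sets the lower limit. Elsewhere in the family depth reached 945 reads, at a position that was a member in the largest block only. Non-conversion in the family was 6 of 14268 reads (0.0421%) in replicate 1 and 13 of 18181 (0.0715%) in replicate 2, and none of its members was called.

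**Figure D5:**
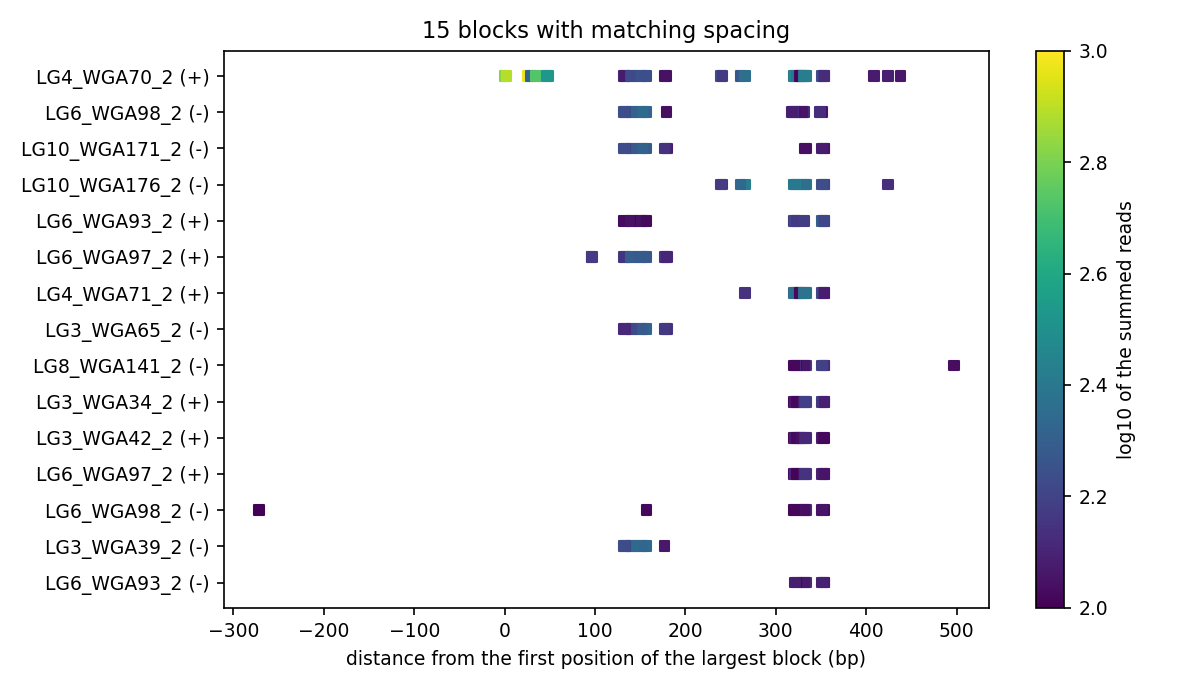
Members of the 15 blocks of the largest family, 1 row per block, placed in bp from the first member of its largest block, with the orientation relative to that block as + or - and colour for the log10 of summed reads. Columns of points at shared distances form 2 stretches, and 4 blocks have at least 3 members in both.

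The second family had 4 blocks, on LG2, LG3, LG7 and LG9, and among them was LG7_WGA113_2:369066-370364, whose members repeated at 377 bp. The other 3 families were pairs. The closest match among these joined the block that begins at position 1267950 of LG4_WGA71_2 to the one that begins at position 670900 of LG5_WGA90_2, with 16 of 16 members matched in the opposite orientation. A pair on LG10 matched at 11 of 13 members and a pair on LG3 and LG8 at 8 of 10. The tables hold no bases, so these families describe shared spacing of deep positions and name no repeat.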

How the data were processed

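Per the labels and the study's methods, the authors trimmed the reads with Trimmomatic 0.32, aligned them with BSMAP 2.5 to assembly version 3.0, removed duplicates with Picard and counted unconverted and converted reads per position. The deposited values were raw counts with no header, and were used as such. How reads that fit several copies were placed, which sets depth in repeats, was not given in the sources used here. Reads on linkage groups gave a median of 3 per position over both replicates, and 1424112 and 2659511 positions of the whole tables had at least 5 reads.

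Counts of both replicates were summed by position with pandas 2.3.3 and numpy 2.4.6, and tests used scipy 1.17.1 on Python 3.11.15. Members, lists and alternatives were chosen with earlier results of these data known, and spacing and families, with the blocks named for them, for depth ratio or for sequence ends, after the data were seen. Other named blocks were among the 5 with the most members, the greatest span or the most unconverted reads, and named positions were those called, or highest among those unconverted in both replicates. The calling script was tested on simulated data. Gene annotation and bases of the authors' assembly were not used here.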

Additional observations from a re-analysis of the deposited data

How the results depend on the processing

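The numbers of members and blocks followed the limits: above 200 reads there were 924 members in 108 blocks, and above 50 reads 9826 members, while gaps of 100 and 1000 bp gave 473 and 325 blocks. The excess of members over shallow positions in replicate 1 (1.39-fold) no longer passed above 200 reads (1.21-fold, two-sided Fisher's exact test, p = 0.108). It was 1.13-fold without the members called in both replicates and 0.881-fold without those called in either, values that are lower by construction and give no direction. In replicate 2 (0.982-fold) the ratio was 0.767 above 200 reads (exact p = 0.0138), 1.03 without the block with the most reads (p = 0.733) and 1.19 as a mean of ratios over positions. Against unplaced positions, the ratio above 200 reads was 1.13 (exact p = 0.283) in replicate 1 and 0.738 (p = 0.00563) in replicate 2 (Fisher's exact test). Without the positions called in either replicate, chosen for their non-conversion in both sets, it was 0.867 and 0.845. The causes were not tested. Calls in both replicates fell from 2 to 1 against a background of 1% non-conversion, and 1 replicate alone called 2 to 4 members. Requiring 2 unconverted reads in each replicate left 3 of the 15 recurring members. The members' mean non-conversion was 0.0524% to 0.0553% with either replicate left out. Of the limits, a test over 2 replicates, paired by library, cannot give a p below 0.5. A single member of at most 200 reads with no unconverted read still allows a level of a few percent, and a deeper one less.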
